A study of Mus musculus with 6 samples.

Results

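The complement system is the set of plasma proteins, most of them made in the liver, that tags microbes and damaged cells and punctures membranes. The 37 genes described here are its components, regulators, collectins and receptors, taken as the rows of the deposited table that carry those symbols. All 37 were found among 25690 rows, and 34 of them had a mean of at least 1 FPKM (fragments per kilobase of transcript, scaled to the mapped fragments of a library) and were tested. Mouse hepatic tissue gave 3 RNA-seq libraries labelled wildtype control and 3 labelled hepatic FTO knockout, FTO being a demethylase that acts on N6-methyladenosine in RNA, and the comparison asks which liver transcripts differ with genotype. The mouse strain, the age and sex of the animals, how Fto was deleted and whether each library is 1 animal are not given in the sources used here, so a p-value here reflects only how far these samples scatter, and that scatter may be technical. Replicates are numbered in the order of the samples and pair nothing.

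Complement is started by 3 routes. In the classical pathway the recognition protein C1q, made of C1qa, C1qb and C1qc chains, binds antibody or dying cells and carries the proteases C1r and C1s, the latter of which cuts C4 and C2. In the lectin pathway mannose-binding lectins, collectins and ficolins bind sugars and carry the MASP proteases, which lead to the cutting of the same substrates. In the alternative pathway factor D cuts factor B on bound C3, and properdin stabilises the enzyme. All routes cut C3 and then C5 (gene Hc in the mouse), after which C6, C7, C8 and several copies of C9 form the membrane attack complex. Hepatocytes make most of these proteins, while C1q and properdin come mainly from macrophages and other myeloid cells, and factor D is best known as adipsin, a product of fat cells.

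Inferred depth was 34140000 to 42530000 fragments per library. Fto, the deleted gene, was at 6.67, 6.02 and 6.40 FPKM in the wild type libraries and 1.79, 3.83 and 2.66 in the knockout libraries. It fell from 6.36 ± 0.324 to 2.76 ± 1.02 FPKM (mean and SD of 3 libraries per group; adjusted p 0.0386 in limma), and all 3 knockout libraries lay below all 3 wild type libraries. Wild type replicate 3 differed most from its group and was the highest or the lowest of the 3 wild type libraries for 83.0% of all tested genes and for 29 of 34 tested complement genes (85.3%). Wild type replicate 1 was the highest or the lowest for 73.8% of all tested genes, and wild type replicate 2 for 43.5%. None of the complement genes was listed at 0 in any library, whereas the table has 0 for the hepatocyte gene Alb in wild type replicate 1 and in knockout replicate 3, which can be a failed estimate.

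Of the 34 tested complement genes, 3 rose in the knockout (C6, C8b and C1ra), 1 fell (Cfd) and 30 were not called by limma at an adjusted p under 0.05. Among all 10405 tested genes, 1.11% were called higher and 1.65% lower. Before adjustment, at p under 0.05, 9 complement genes were higher and 3 were lower, where 8.65% and 10% of all tested genes were. Of the 34, 10 were higher and 3 lower in all knockout libraries than in all wild type libraries, without overlap (29.4% and 8.82%), against 11.5% and 13% of all tested genes (24.5% in either direction). The median log2 change was 0.19 over the tested complement genes and -0.0018 over all tested genes, with 23 complement genes above 0 and 11 below, where 49.7% of all tested genes lay above 0. Every log2 change was computed from log2(FPKM + 1), so that low genes look less changed than they are, and folds are ratios of mean FPKM.

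**Figure D1:**
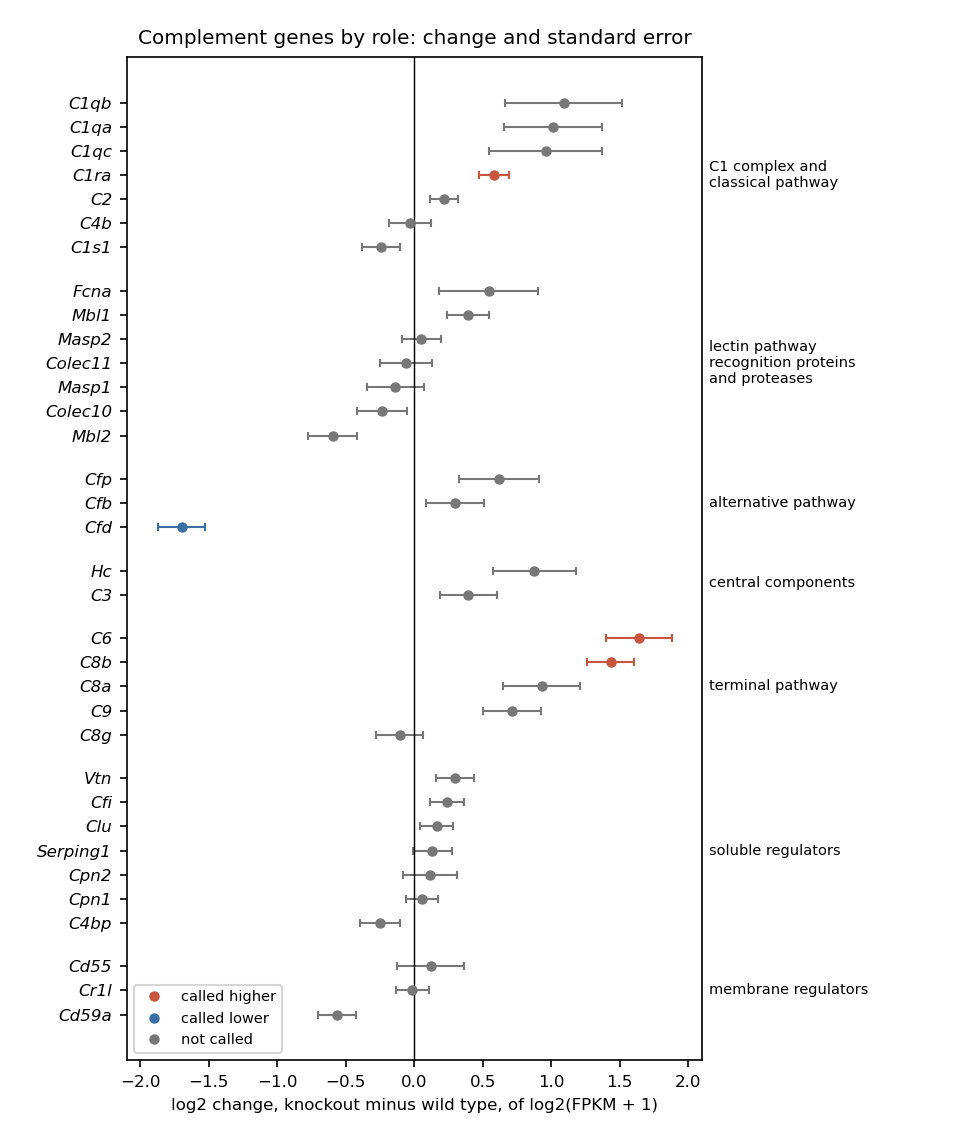
Log2 change (knockout minus wild type, x axis) of the 34 tested complement genes, in blocks by role, with bars of 1 standard error from limma. C6 and C8b lie farthest to the right at 1.64 and 1.43, and Cfd lies alone on the left at -1.70.

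In the membrane attack complex 2 of 5 tested genes rose, C6 and C8b, and 0 fell. Of all tested genes, 1.11% were called higher and 1.65% lower. C6 encodes the protein that joins C5b and starts the assembly (ENSMUSG00000022181, chromosome 15, 4727175 to 4814967, forward strand, mm10). C6 stood at 36.3, 30.3 and 22.4 FPKM in the wild type (replicates 1 to 3) and 109, 66.9 and 110.5 FPKM in the knockout (replicates 1 to 3). All knockout libraries lay above all wild type libraries, with knockout replicate 2 the lowest of them. The means were 29.6 ± 6.98 FPKM (wild type) and 95.3 ± 24.6 FPKM (knockout, SD, n = 3 per group), a 3.21-fold rise (log2 change 1.64, SE 0.24, adjusted p 0.0157 in limma). The call was lost without wild type replicate 2, knockout replicate 1 or knockout replicate 3 and with no filter on low values, with adjusted p-values of 0.0521, 0.0652, 0.0826 and 0.0576, within a range of 0.0108 to 0.0826 over all 11 alternatives.

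C8b encodes the beta chain of C8, the chain that docks on C5b-7 (ENSMUSG00000029656, chromosome 4, 104766317 to 104804548, forward strand, mm10). It was at 67.1, 65.7 and 46.0 FPKM in the wild type (replicates 1 to 3) and 147, 155 and 181 FPKM in the knockout (replicates 1 to 3). The lowest knockout library and the highest wild type library were far apart. C8b rose 2.70-fold, from 59.6 ± 11.8 to 161 ± 17.4 FPKM (mean and SD of 3 libraries per group; log2 change 1.43, SE 0.17, adjusted p 0.00723 in limma). Its adjusted p was 0.0524 without knockout replicate 3 and 0.00497 to 0.0330 under the other 10 alternatives.

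The C8a and C8g genes encode the other chains of C8, which in the plasma protein occur 1 each with the beta chain. C8a, the alpha chain that inserts into the membrane (ENSMUSG00000035031, chromosome 4, 104815679 to 104876398, reverse strand, mm10), was at 187, 162 and 86.0 FPKM in the wild type (replicates 1 to 3) and 307, 228 and 259 FPKM in the knockout (replicates 1 to 3). Its groups did not overlap either, with wild type replicate 3 far below the other wild type libraries, but it was not called (log2 change 0.93, SE 0.28, adjusted p 0.138 in limma). C8g, the lipocalin-like gamma chain (ENSMUSG00000015083, chromosome 2, 25498651 to 25501719, reverse strand, mm10), was at 457, 584 and 699.9 FPKM in the wild type (replicates 1 to 3) and 491, 556 and 546 FPKM in the knockout (replicates 1 to 3), and these ranges overlapped (log2 change -0.11, SE 0.17, adjusted p 0.802 in limma). C9, the subunit that forms the ring of the pore (ENSMUSG00000022149, chromosome 15, 6445327 to 6498751, forward strand, mm10), was at 222, 266 and 160.3 FPKM in the wild type (replicates 1 to 3) and 420.1, 312 and 319 FPKM in the knockout (replicates 1 to 3). All C9 values of the knockout exceeded all of the wild type, and the difference was not called (log2 change 0.71, SE 0.21, adjusted p 0.132 in limma). C7, which is made largely outside hepatocytes, was at 0.0326 to 0.0645 FPKM in the wild type and 0.0653 to 0.0774 FPKM in knockout and was not tested. C6 over C7 was 1114, 489.6 and 347 in wild type and 1663, 864 and 1566 in knockout, with overlapping groups (p = 0.200, adjusted over 11 ratios 0.367 in the exact permutation test). With C7 so low, this ratio is uncertain.

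**Figure D2:**
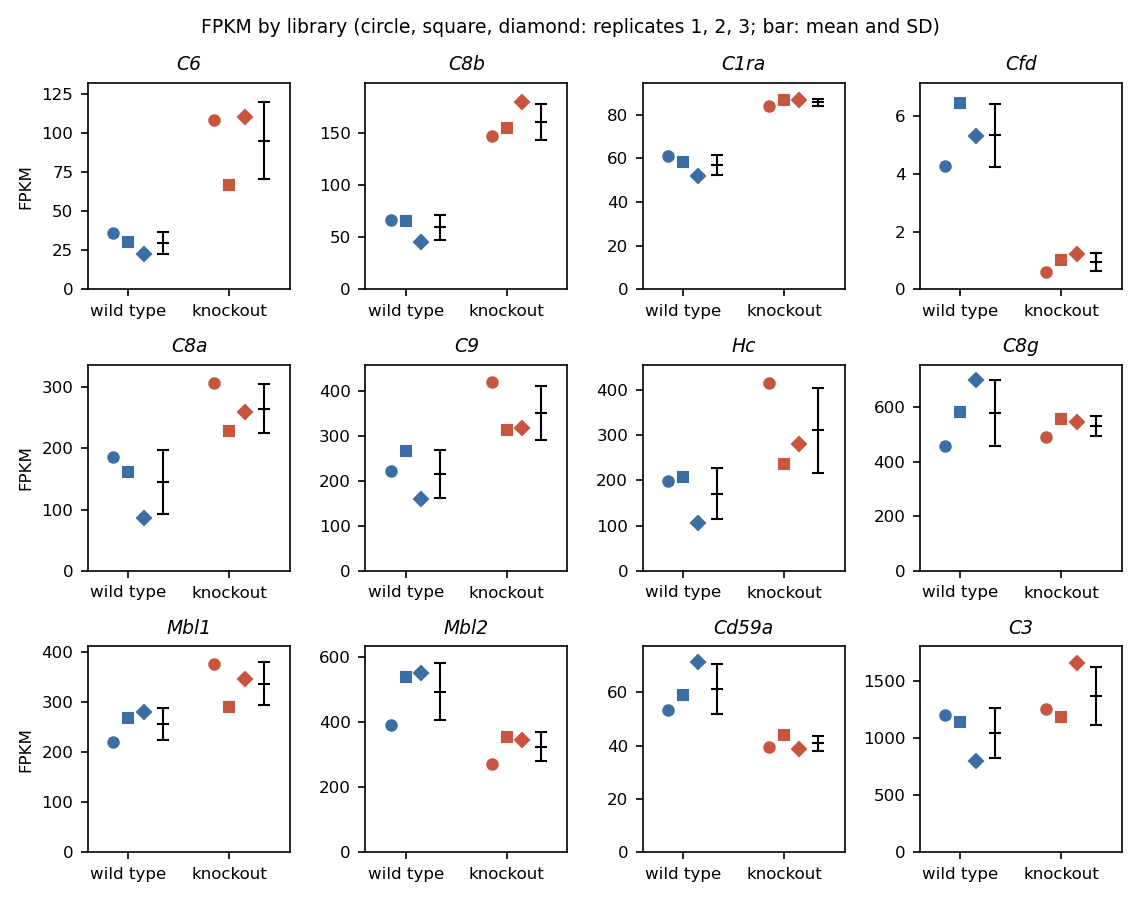
FPKM (y axis, from 0, with its own scale in each panel) of 12 complement genes in each wild type and knockout library, with the mean and SD of each group. The groups do not overlap for C6, C8b, C1ra, Cfd, C8a, C9, Hc, Mbl1, Mbl2 and Cd59a, and they overlap for C8g and C3.

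Because FPKM is scaled by length, the chains of one protein can be set side by side within a library. In wild type the order was C8g, C8a, C8b, with means of 580.3, 145 and 59.6 FPKM, and in knockout the same order held at 531, 265 and 161 FPKM. The C8b to C8g ratio was 0.147, 0.113 and 0.0657 in wild type and 0.300, 0.278 and 0.331 in knockout. The C8a to C8g ratio was 0.408, 0.278 and 0.123 in wild type and 0.625, 0.411 and 0.475 in knockout. Both ratios were higher in all 3 knockout libraries than in any wild type library, by a wide gap for C8b over C8g and with the nearest libraries almost touching for C8a over C8g (two-sided exact permutation test on the log2 ratios, p = 0.1, adjusted over 11 ratios 0.275 for each, where 0.1 is the smallest p that 3 against 3 allows). The C8a to C8b ratio was 2.78, 2.47 and 1.87 in wild type and 2.08, 1.47 and 1.44 in knockout, and its groups overlapped (p = 0.200, adjusted over 11 ratios 0.367 in the exact test). Summed over its 6 genes, the terminal pathway ran from 969.7 to 1108 FPKM over the wild type libraries and from 1319 to 1473 FPKM in knockout.

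**Figure D3:**
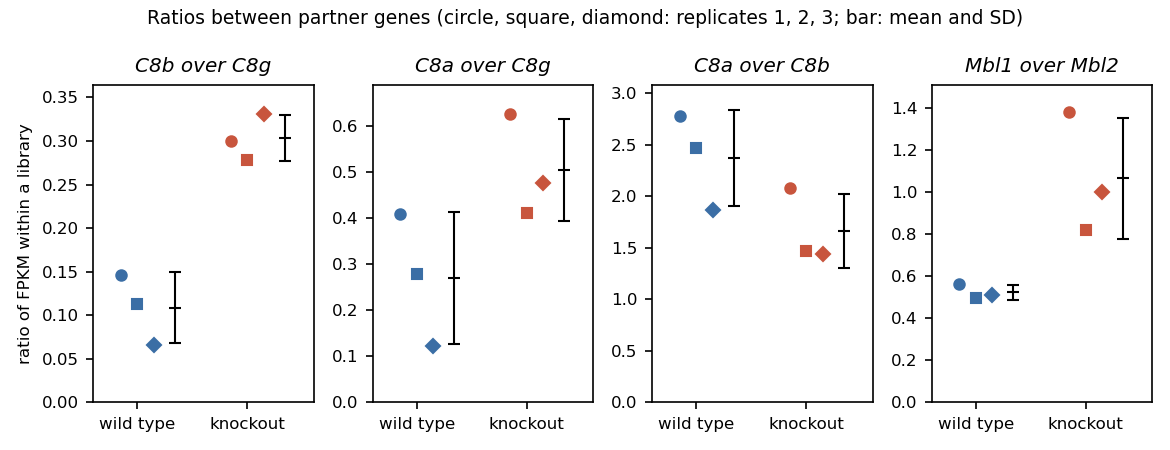
Ratio of the FPKM of partner genes within each library (y axis, from 0), for 3 pairs of C8 chains and for Mbl1 over Mbl2, with the mean and SD of each group. The groups are apart for C8b over C8g, C8a over C8g and Mbl1 over Mbl2 and overlap for C8a over C8b.

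The stretch before the transcription start is shown for both called terminal genes and for C8a, C9 and Hc, the other terminal and central genes that were tested and higher with groups apart, so that the letters before these genes can be compared. Sequences are from RefSeq (GRCm38.p6), on the gene's strand, from 250 bases before the start up to the start or to the first annotated exon, and capitals mark a match to one of the searched motifs.
C6 (chr15:4726960-4727174, forward strand): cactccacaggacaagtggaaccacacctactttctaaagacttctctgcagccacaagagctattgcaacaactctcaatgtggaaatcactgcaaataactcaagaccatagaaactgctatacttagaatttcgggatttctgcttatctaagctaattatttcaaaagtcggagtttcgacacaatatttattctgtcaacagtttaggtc
C8b (chr4:104766067-104766316, forward strand): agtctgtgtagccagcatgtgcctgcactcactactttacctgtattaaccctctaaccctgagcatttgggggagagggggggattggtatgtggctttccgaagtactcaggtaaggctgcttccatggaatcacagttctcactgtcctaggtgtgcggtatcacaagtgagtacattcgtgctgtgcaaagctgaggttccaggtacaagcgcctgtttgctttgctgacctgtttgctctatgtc
C8a (chr4:104876399-104876648, reverse strand): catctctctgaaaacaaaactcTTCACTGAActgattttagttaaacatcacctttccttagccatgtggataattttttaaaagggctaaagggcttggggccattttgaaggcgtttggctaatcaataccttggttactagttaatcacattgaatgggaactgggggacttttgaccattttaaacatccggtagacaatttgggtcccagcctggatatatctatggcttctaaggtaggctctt
C9 (chr15:6445096-6445326, forward strand): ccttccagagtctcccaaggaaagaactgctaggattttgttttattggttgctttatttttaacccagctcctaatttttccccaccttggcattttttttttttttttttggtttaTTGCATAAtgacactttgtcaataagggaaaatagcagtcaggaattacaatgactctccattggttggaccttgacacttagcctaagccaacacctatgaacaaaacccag
Hc (chr2:35061439-35061662, reverse strand): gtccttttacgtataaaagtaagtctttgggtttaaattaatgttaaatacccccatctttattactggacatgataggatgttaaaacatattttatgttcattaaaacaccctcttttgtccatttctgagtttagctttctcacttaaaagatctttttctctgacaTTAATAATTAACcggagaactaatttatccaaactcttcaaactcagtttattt
Searched on both strands were TTCNNNGAA, bound by STAT factors, TTNNGCAA, bound by C/EBP factors, and the HNF1 consensus. In the 250 bases before the start, C6 and C8b held no match, C8a held the STAT letters, and C9 and Hc, each read on the other strand, held the C/EBP and the HNF1 letters. Among the 30 windows of the 28 complement genes with an entry, 5 held the STAT letters (C7, C8a, Colec11, Cpn2 and Masp2), 4 the C/EBP letters (C1s1, C3, C9 and Cpn2) and 1 the HNF1 letters. Of all 32851 windows, 7.02%, 9.56% and 0.0609% did. A match is a run of letters and no site of binding was measured.

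C5 and C3 are the central components. Hc, which encodes C5 (ENSMUSG00000026874, chromosome 2, 34983331 to 35061438, reverse strand, mm10), was at 199.5, 207 and 106 FPKM in the wild type (replicates 1 to 3) and 415, 235 and 281 FPKM in the knockout (replicates 1 to 3). Its groups did not overlap, but knockout replicate 2 lay close to wild type replicates 1 and 2, and it was not called (log2 change 0.88, SE 0.30, adjusted p 0.178 in limma). C3 was the most abundant of the complement genes, with a mean over the 6 libraries of 1208 FPKM, above 99.2% of tested genes (ENSMUSG00000024164, chromosome 17, 57203970 to 57228136, reverse strand, mm10). C3 was at 1202, 1139.6 and 797 FPKM in the wild type (replicates 1 to 3) and 1259, 1188 and 1661 FPKM in the knockout (replicates 1 to 3). Knockout replicate 2 lay below wild type replicate 1, so the groups overlapped (log2 change 0.40, SE 0.21, adjusted p 0.361 in limma).

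Other products of hepatocytes were measured beside these genes. Of 15 acute phase genes, 0 were called by limma. At p under 0.05 without adjustment, 6 were higher and 0 lower, where 8.65% and 10% of all tested genes were. All 15 had log2 changes above 0, and their summed level was 8834 to 11126 FPKM in the wild type libraries and 11627 to 17325 in the knockout libraries. Of 8 hepatocyte markers 1 was called higher (Ahsg, named after its values were seen) and 0 lower. Of all tested genes, 1.11% were called higher and 1.65% lower. Fgb stands in this list and in that of the acute phase genes, so it counts in both. The median log2 change of the hepatocyte markers was 0.43. At p under 0.05 without adjustment, 5 were higher and 0 lower. Without overlap, 5 were higher and 0 lower, where 11.5% and 13% of all tested genes were. The sum of the hepatocyte markers without Alb was 16045 to 19459 FPKM in the wild type and 22706 to 24522 FPKM in knockout. Their part in the changes of the complement genes was not tested. In bulk tissue, fewer cells of a type and less RNA per cell cannot be told apart.

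In the classical pathway 1 of 7 genes was called higher and 0 lower by limma, where 1.11% and 1.65% of all tested genes were. C1ra encodes the protease C1r, which cuts C1s once C1q has bound (ENSMUSG00000055172, chromosome 6, 124512405 to 124523443, forward strand, mm10). It was at 60.9, 58.2 and 52.1 FPKM in the wild type (replicates 1 to 3) and 83.7, 86.7 and 86.5 FPKM in the knockout (replicates 1 to 3). The knockout libraries lay within a narrow band above all wild type libraries. C1ra rose, from 57.1 ± 4.52 to 85.6 ± 1.69 FPKM (mean and SD of 3 libraries per group; log2 change 0.58, SE 0.11, adjusted p 0.0399 in limma). The call was lost with quantile normalization (0.0588) and without any library other than wild type replicate 3 (0.0596 without wild type replicate 1, 0.168 without wild type replicate 2, and 0.124, 0.104 and 0.153 without knockout replicates 1, 2 and 3), while the log2 change stayed between 0.52 and 0.63. Of its 50-base words 50.8% also occur in transcripts of other genes, 48.0% in those of its copy C1rb, so how reads were divided between them is uncertain.

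C1s1, the partner protease of C1r, whose gene lies 6.90 kb from C1ra on the opposite strand, was at 172, 203 and 198 FPKM in the wild type libraries and 143, 182 and 158 in the knockout libraries, in the order of the replicates (log2 change -0.25, SE 0.14, adjusted p 0.398 in limma). C2, the substrate that forms the C3 convertase, was at 25.0, 26.9 and 25.9 FPKM in the wild type libraries and 30.5, 31.6 and 28.6 in the knockout libraries. Its groups were apart by a small margin, with no call (log2 change 0.22, SE 0.10, adjusted p 0.319 in limma). C4b, which encodes C4, was at 114, 135 and 102 FPKM in the wild type libraries and 105, 106 and 132 in the knockout libraries and overlapped (log2 change -0.031, SE 0.15, adjusted p 0.946 in limma). Of the 50-base words of C1s1, C2 and C4b, 21.9%, 38.7% and 34.6% are shared with other genes, mostly the copies C1s2 and C4a and, for C2, the overlapping gene Gm20547.

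The 3 C1q chains were highest and lowest in the same libraries. C1qa (ENSMUSG00000036887, chromosome 4, 136895917 to 136898803, reverse strand, mm10) was at 10.6, 17.9 and 32.2 FPKM in the wild type (replicates 1 to 3) and 38.8, 29.9 and 47.5 FPKM in the knockout (replicates 1 to 3). C1qb followed the same order of libraries at 9.49, 16.1 and 36.3 FPKM in the wild type libraries and 39.5, 29.5 and 51.2 in the knockout libraries. C1qc was at 7.44, 13.1 and 27.4 FPKM in the wild type libraries and 27.3, 21.2 and 38.5 in the knockout libraries. Wild type replicate 1 was the lowest and knockout replicate 3 the highest for all 3 chains, and wild type replicate 3 lay among the knockout libraries for C1qa, C1qb and C1qc, so that the groups overlapped. None of the chains was called, with log2 changes of 1.01, 1.09 and 0.96 and adjusted p-values of 0.186, 0.227 and 0.273 in limma. Without wild type replicate 3, C1qa and C1qb were called higher, with log2 changes of 1.40 and 1.58 and adjusted p-values of 0.0405 and 0.0361, and 2.56% of all tested genes were then called higher. Without wild type replicate 1, the lowest library, the log2 changes of C1qa, C1qb and C1qc were 0.64, 0.67 and 0.54, with adjusted p-values of 0.301, 0.386 and 0.464. Over all 11 alternatives the adjusted p of C1qa ran from 0.0405 to 0.433 and that of C1qb from 0.0361 to 0.488.

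C1q is made by macrophages, and markers of Kupffer cells, the resident macrophages of the liver, were read beside it. Of 12 such markers 0 were called by limma. At p under 0.05 without adjustment, 4 were higher and 0 lower, where 8.65% and 10% of all tested genes were. All 12 markers had log2 changes above 0, from 0.0061 to 1.44, and none of the 12 was under a mean of 1 FPKM. Their summed level ran from 59.1 to 189 FPKM in the wild type libraries and 159 to 278 in the knockout libraries. The defining marker Clec4f was at 16.0, 26.6 and 48.8 FPKM in the wild type libraries and 51.7, 37.5 and 62.4 in the knockout libraries, Cd5l at 9.43, 16.3 and 30.3 FPKM in the wild type libraries and 27.7, 23.8 and 41.9 in the knockout libraries and Marco at 1.07, 1.61 and 0.908 FPKM in the wild type libraries and 5.12, 1.67 and 6.77 in the knockout libraries. The summed C1q chains, divided by the summed markers in the same library, gave 0.465, 0.477 and 0.506 in wild type and 0.503, 0.508 and 0.494 in knockout, a range of 0.465 to 0.508 over libraries whose C1q sum itself ran from 27.5 to 137 FPKM (exact permutation p = 0.300, adjusted over 8 quantities 0.600). This ratio was chosen after the values were seen and depends on which markers are summed.

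**Figure D4:**
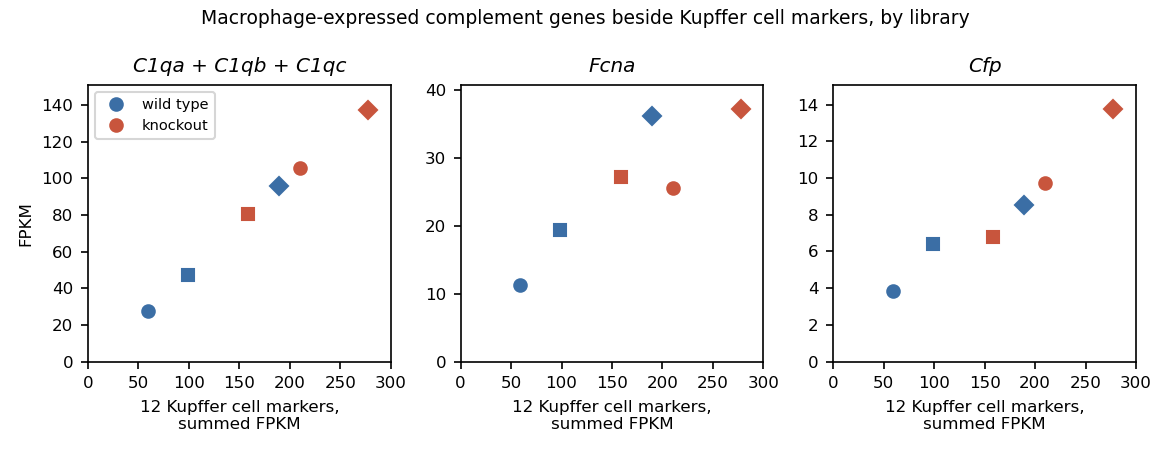
FPKM of the summed C1q chains, of Fcna and of Cfp (y axes, from 0) against the summed FPKM of 12 Kupffer cell markers (x axis) in each of the 6 libraries, with circle, square and diamond for replicates 1, 2 and 3. The C1q points keep a ratio of 0.465 to 0.508, and the knockout points of Fcna lie at a lower ratio than the wild type points.

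The C1q chains also kept close to each other. The C1qa to C1qb ratio was 1.11, 1.11 and 0.886 in wild type and 0.981, 1.01 and 0.927 in knockout, with overlapping groups (p = 0.600, adjusted over 11 ratios 0.700 in the exact permutation test). C1qa over C1qc was 1.42, 1.36 and 1.18 in wild type and 1.42, 1.41 and 1.23 in knockout (p = 0.700, adjusted over 11 ratios 0.700 in the exact test). C1qb over C1qc was 1.28, 1.22 and 1.33 in wild type and 1.45, 1.39 and 1.33 in knockout, with groups that did not overlap but almost touched, at wild type replicate 3 and knockout replicate 3 (p = 0.1, adjusted over 11 ratios 0.275 in the exact test). The 3 genes lie within one stretch of chromosome 4 on one strand, with 3.62 kb between C1qb and C1qc and 2.85 kb between C1qc and C1qa.

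In the lectin pathway 0 of 7 genes were called higher and 0 lower by limma. At p under 0.05 without adjustment, 1 was higher and 1 lower, where 8.65% and 10% of all tested genes were. Those below 0.05 are the genes of the mannose-binding lectins, and they lay in opposite directions. Mbl1, which encodes mannose-binding lectin A (ENSMUSG00000037780, chromosome 14, 41151458 to 41159601, forward strand, mm10), was at 219.9, 268 and 280.3 FPKM in the wild type (replicates 1 to 3) and 376, 290.1 and 345 FPKM in the knockout (replicates 1 to 3). Mbl2, which encodes mannose-binding lectin C (ENSMUSG00000024863, chromosome 19, 30232942 to 30239687, forward strand, mm10), was at 392, 539 and 550.2 FPKM in the wild type (replicates 1 to 3) and 272, 355 and 346 FPKM in the knockout (replicates 1 to 3). All Mbl1 values were higher and all Mbl2 values lower in knockout than in wild type, with log2 change 0.39, SE 0.15, adjusted p 0.225 in limma for Mbl1 and log2 change -0.60, SE 0.18, adjusted p 0.137 in limma for Mbl2. The Mbl1 to Mbl2 ratio was 0.561, 0.497 and 0.509 in wild type and 1.38, 0.817 and 0.998 in knockout, a change of 2.04-fold in its mean with groups that did not overlap (p = 0.1, adjusted over 11 ratios 0.275 in the exact permutation test, the smallest p the design allows). The wild type ratios spread by 0.0341 (SD) and the knockout ratios by 0.288.

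Fcna encodes ficolin-A, a lectin made by macrophages, and was at 11.3, 19.5 and 36.2 FPKM in the wild type (replicates 1 to 3) and 25.7, 27.3 and 37.3 FPKM in the knockout (replicates 1 to 3). As for C1q, wild type replicate 3 was as high as the knockout libraries (log2 change 0.54, SE 0.36, adjusted p 0.482 in limma). The log2 change of Fcna was 0.15 without wild type replicate 1 and 0.95 without wild type replicate 3, neither called. Divided by the summed Kupffer cell markers, Fcna was 0.191, 0.197 and 0.191 in wild type and 0.122, 0.172 and 0.134 in knockout, lower in every knockout library (exact permutation p = 0.1, adjusted 0.600). This ratio was also chosen after the values were seen. It depends on which markers are summed and was not computed for single markers. The genes of the lectin-bound proteases, Masp1 and Masp2, were at 9.20 ± 0.829 and 168 ± 27.2 FPKM in the wild type and 8.52 ± 2.71 and 173 ± 2.54 in the knockout (mean and SD of 3 libraries per group). Neither was called, with adjusted p-values of 0.785 and 0.894 in limma. Masp2 ran from 147 to 199 FPKM over the wild type libraries and from 170.3 to 175 FPKM in knockout, and it overlaps Tardbp on the other strand. Masp1 overlaps Rtp4 on the other strand, whose mean of 8.97 FPKM was close to the 8.86 FPKM of Masp1. The sources used here do not give whether counting used strand, so the value of Masp1 and its ratio to Masp2 are uncertain. Masp1 over Masp2 was 0.0594, 0.0644 and 0.0437 in wild type and 0.0321, 0.0638 and 0.0525 in knockout (p = 0.600, adjusted over 11 ratios 0.700 in the exact test). The collectin genes Colec10 and Colec11 were at 3.31 and 16.2 FPKM in the wild type and 2.70 and 15.3 FPKM in knockout, with overlapping groups and adjusted p-values of 0.546 and 0.908 in limma.

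In the alternative pathway Cfd fell. Cfd encodes factor D, the protease that activates factor B (ENSMUSG00000061780, chromosome 10, 79890853 to 79892655, forward strand, mm10). It was at 4.26, 6.46 and 5.31 FPKM in the wild type (replicates 1 to 3) and 0.610, 1.01 and 1.24 FPKM in the knockout (replicates 1 to 3). The highest knockout library held 1.24 FPKM and the lowest wild type library 4.26 FPKM. Cfd fell 5.62-fold, from 5.34 ± 1.10 to 0.951 ± 0.317 FPKM (mean and SD of 3 libraries per group; log2 change -1.70, SE 0.17, adjusted p 0.00388 in limma). It was called under all 11 alternatives, with adjusted p-values from 0.00217 to 0.0272. The RefSeq window before its start, shown because Cfd is the 1 complement gene called lower, held no match to the 3 motifs.
Cfd (chr10:79890603-79890852, forward strand): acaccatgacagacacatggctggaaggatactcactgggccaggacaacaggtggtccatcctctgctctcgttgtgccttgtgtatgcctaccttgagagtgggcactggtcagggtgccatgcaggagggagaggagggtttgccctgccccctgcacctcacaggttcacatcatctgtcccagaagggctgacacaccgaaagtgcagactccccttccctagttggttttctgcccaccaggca

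Fat cell markers were measured beside Cfd. Adipoq was at 0.0824, 0.233 and 0.0248 FPKM in the 3 wild type libraries, in the order of the replicates, and listed at 0 in all 3 knockout libraries. Plin1 was at 0.0312 FPKM or less and Lep at 0.00843 FPKM or less in every library. The 6 adipocyte markers summed to 17.5 to 43.8 FPKM in the wild type libraries and 13.5 to 16.9 in the knockout libraries, of which Fabp4, which other cells express as well, made up most, and 4 of the 6 had a mean under 1 FPKM. Lipe was at 4.01, 3.75 and 3.64 FPKM in the wild type libraries and 2.60, 3.43 and 3.23 in the knockout libraries, and Retn at 0.123 to 0.217 FPKM in the wild type libraries and 0 to 0.0818 in the knockout libraries. Like Cfd, Lipe and Retn, both named after their values were seen, were lower in all knockout libraries without overlap, as were 13% of all tested genes. Retn was too low to be tested. Fabp4 was at 13.3 to 39.9 FPKM in the wild type libraries and 10.8 to 13.7 in the knockout libraries, and its groups overlapped. Of the 2 tested, Fabp4 and Lipe, 0 were called higher and 0 lower in limma, and 0 lay under 0.05 without adjustment. Their part in the decrease of Cfd was not tested.

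Cfb, which encodes factor B (ENSMUSG00000090231, chromosome 17, 34856374 to 34862518, reverse strand, mm10), was at 473, 465 and 321 FPKM in the wild type (replicates 1 to 3) and 635, 427 and 483 FPKM in the knockout (replicates 1 to 3), with overlapping groups (log2 change 0.30, SE 0.21, adjusted p 0.506 in limma). It shares 73.0% of its 50-base words with Gm20547, a gene that spans Cfb and C2, and lies 86 bases from C2, so its value is uncertain. C3 over Cfb was 2.54, 2.45 and 2.48 in wild type and 1.98, 2.78 and 3.44 in knockout (p = 0.700, adjusted over 11 ratios 0.700 in the exact permutation test). Cfp encodes properdin and was at 3.86, 6.39 and 8.51 FPKM in the wild type (replicates 1 to 3) and 9.70, 6.81 and 13.7 FPKM in the knockout (replicates 1 to 3), in the order of the Kupffer cell markers within each group and without a call (log2 change 0.62, SE 0.29, adjusted p 0.316 in limma). The log2 change of Cfp was 0.36 without wild type replicate 1 and 0.39 without knockout replicate 3. Its ratio to the summed markers was 0.0653, 0.0647 and 0.0449 in wild type and 0.0462, 0.0430 and 0.0495 in knockout, with overlapping groups. This ratio too was chosen after the values were seen.

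Among 7 soluble regulators 0 were called higher and 0 lower by limma, 0 were below an unadjusted p of 0.05 in either direction, and the log2 changes ran from -0.25 to 0.30. Vtn, which encodes vitronectin, an inhibitor of membrane attack, was at 809, 826 and 669.6 FPKM in the wild type libraries and 975, 873 and 972 in the knockout libraries. Cfi, the protease that degrades C3b and C4b, was at 226, 264 and 220.3 FPKM in the wild type libraries and 272, 282 and 282 in the knockout libraries. For both, the knockout libraries lay above the wild type libraries, with adjusted p-values of 0.305 and 0.357. Clu, which encodes clusterin, another inhibitor of membrane attack, was at 582, 626 and 586 FPKM in the wild type libraries and 701, 614 and 695 in the knockout libraries, and Serping1, the C1 inhibitor that blocks C1r, C1s and the MASPs, at 347, 378 and 288 FPKM in the wild type libraries and 358, 347 and 399 in the knockout libraries. C4bp, the cofactor that helps factor I cut C4b, was at 251, 296 and 312 FPKM in the wild type libraries and 209.6, 244 and 267 in the knockout libraries. These 3 genes had overlapping groups and adjusted p-values of 0.531, 0.687 and 0.414 in limma.

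Carboxypeptidase N, which inactivates the peptides C3a and C5a, has a catalytic chain from Cpn1 and a carrier chain from Cpn2. Cpn1 was at 129, 122 and 122 FPKM in the wild type libraries and 125, 122 and 142 in the knockout libraries, and Cpn2 ran from 23.4 to 34.3 FPKM over the wild type libraries and from 25.6 to 39.0 FPKM in knockout. The Cpn1 to Cpn2 ratio was 4.03, 3.55 and 5.22 in wild type and 4.90, 3.68 and 3.63 in knockout (p = 0.700, adjusted over 11 ratios 0.700 in the exact permutation test). Cpn1 varied little between wild type libraries, with a coefficient of variation of 3.25%, and its difference was not called (adjusted p 0.854 in limma).

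The membrane regulators protect the body's own cells. Cd59a, which stops C9 from entering the pore (ENSMUSG00000032679, chromosome 2, 104095801 to 104115354, forward strand, mm10), was at 53.2, 59.1 and 71.2 FPKM in the wild type (replicates 1 to 3) and 39.6, 44.0 and 38.7 FPKM in the knockout (replicates 1 to 3). All knockout libraries lay below all wild type libraries (log2 change -0.56, SE 0.14, adjusted p 0.0808 in limma). It was called lower with quantile normalization (adjusted p 0.0390) and not under the other 10 alternatives, whose adjusted p-values ran up to 0.256. Cd55, which speeds the decay of convertases, was at 2.90, 3.92 and 6.97 FPKM in the wild type libraries and 4.45, 4.51 and 5.53 in the knockout libraries, with wild type replicate 3 the highest of all libraries (adjusted p 0.851 in limma). Cr1l, the rodent regulator Crry, was at 23.9 ± 2.40 FPKM in the wild type and 23.6 ± 1.76 in the knockout (mean and SD of 3 libraries per group; adjusted p 0.965 in limma).

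The anaphylatoxin receptors were too low to be tested. C3ar1, the receptor of C3a, was at 0.153, 0.239 and 0.374 FPKM in the wild type libraries and 0.558, 0.358 and 0.608 in the knockout libraries. C5ar1, the receptor of C5a, was at 0.0478, 0.0907 and 0.130 FPKM in the wild type libraries and 0.180, 0.146 and 0.262 in the knockout libraries. Knockout replicate 3 was the highest library for both receptors and wild type replicate 1 the lowest, as for the summed Kupffer cell markers. The groups overlapped for C3ar1 and not for C5ar1.

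**Figure D5:**
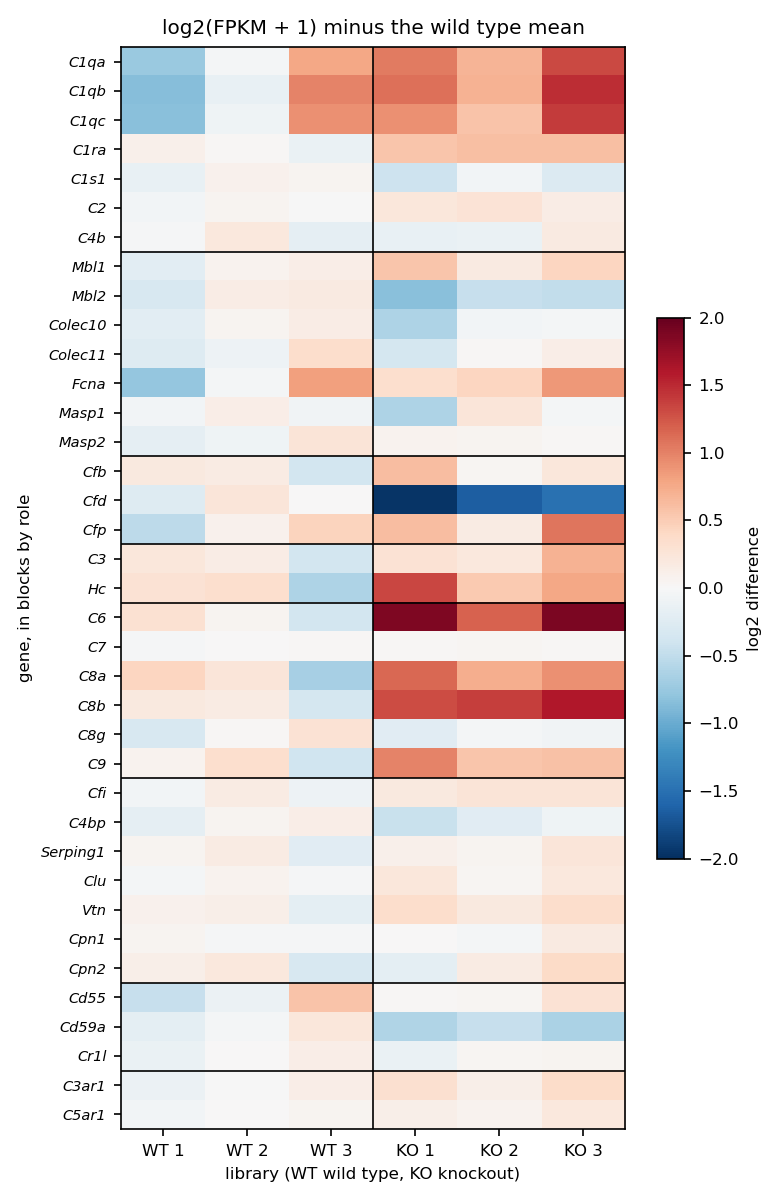
Log2(FPKM + 1) of all 37 complement genes in the 6 libraries (columns), minus the mean of the 3 wild type libraries, in blocks by role (rows), with red above and blue below that mean. The C1q chains and Fcna in wild type replicate 3 have the color of the knockout libraries, while C6, C8a, C8b, C9, Hc and C3 are lowest in wild type replicate 3.

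Wild type replicate 3 differed from the other wild type libraries in opposite directions for these blocks. It held 0.493 times the mean of wild type replicates 1 and 2 for C8a, 0.522 times for Hc, 0.656 times for C9 and 0.673 times for C6. For C1qa, C1qb, C1qc and Fcna it held 2.26, 2.84, 2.66 and 2.35 times that mean. Without this library the log2 change was 1.46 for C6, 1.26 for C8b, 0.59 for C8a, 0.51 for C9, 0.57 for Hc, 0.21 for C3 and 0.11 for Cfb, with C6 and C8b still called. The log2 change of C3 was 0.25 without knockout replicate 3. Without knockout replicate 1 the change was 0.14 for Cfb, -0.16 for C1s1, -0.16 for C4bp and -0.045 for Colec10, against 0.30, -0.25, -0.25 and -0.24 with all libraries.

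Further complement genes outside the 37 were read from a list of 27, of which 26 were in the table and 16 tested. Of these 1 was called higher (C1rb) and 0 lower by limma, where 1.11% and 1.65% of all tested genes were. Without adjustment, 6 were higher and 2 lower at p under 0.05, where 8.65% and 10% of all tested genes were. C1rb, the second copy of the C1r gene, was at 18.2, 18.5 and 17.2 FPKM in the wild type libraries and 25.1, 27.1 and 27.6 in the knockout libraries (log2 change 0.54, SE 0.10, adjusted p 0.0386 in limma). That call was lost without any single library other than wild type replicate 3, with adjusted p-values up to 0.154. Because 48.0% of the 50-base words of C1ra also occur in C1rb, the calls of C1ra and C1rb may not be independent. Crp, which encodes C-reactive protein, a ligand of C1q, was at 206, 231 and 231 FPKM in the wild type libraries and 281, 316 and 366 in the knockout libraries (adjusted p 0.102 in limma), and C1rl, a C1r-like protease gene, at 43.7, 42.1 and 38.3 FPKM in the wild type libraries and 55.1, 52.1 and 52.4 in the knockout libraries (adjusted p 0.138 in limma). Colec12, a scavenger receptor of the collectin type, was at 13.1, 13.8 and 10.7 FPKM in the wild type libraries and 7.52, 8.55 and 7.98 in the knockout libraries (adjusted p 0.0532 in limma), and it was called lower with robust empirical Bayes and without wild type replicate 3.

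Several complement genes are neighbours on a chromosome. C8b and C8a lie tail to tail on chromosome 4 with 11.1 kb between them and log2 changes of 1.43 and 0.93, the former called. C6 and C7 lie 174 kb apart on chromosome 15, and C6 was at 29.6 FPKM in wild type while C7 was at 0.0530 FPKM. C1ra and C1s1 lie tail to tail on chromosome 6 with log2 changes of 0.58 and -0.25. C4b, Cfb and C2 lie in one stretch of chromosome 17 with log2 changes of -0.031, 0.30 and 0.22, none of them called.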

How the data were processed

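The authors deposited FPKM values for 25690 genes under Ensembl identifiers. Per the submitters' processing notes, the build was mm10 and the tools were Cufflinks 2.2.1, HTSeq and TopHat2 2.1.0, with no role given; RNA was extracted with Trizol, treated with DNase and column-purified, per the labels' protocols. GENCODE M21, on GRCm38 as mm10 is, gave symbols and coordinates. Depth was inferred from what 1 fragment is worth in genes with 1 transcript of 3000 to 8000 bases, in a window of 25000000 to 50000000 fragments set after the values were seen. Counts were not recovered, so no count model was used.

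limma 3.58.1 in R 4.3.3 (lmFit, eBayes with trend, two-sided) was fitted to log2(FPKM + 1) for 10405 genes whose mean over the 6 libraries reached 1 FPKM, with Benjamini-Hochberg adjustment over all of them, and tested on simulated data. Alternatives were quantile normalization, size factors from median ratios, a pseudocount of 0.1, no low-value filter, robust empirical Bayes and leaving out each library. Ratios between genes were compared with exact permutation tests. The members and lists were chosen with earlier results of these data known. Named are all members, Fto, the 5 other complement genes with the smallest p (1 of them is not reported here), and defining cell markers. Neutrophil, lymphocyte, sinusoidal endothelial, stellate, and mesothelial and cholangiocyte markers had 0 calls among 17 tested genes in limma (1 lower, an endothelial one, at an unadjusted p under 0.05).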

Additional observations from a re-analysis of the deposited data

How the results depend on the processing

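Leaving out each library gave 0 to 5 complement genes called higher (0 without knockout replicate 3, 5 without wild type replicate 3) and 1 called lower, Cfd, in each case. With knockout replicate 3 left out, 6 complement genes were higher at an unadjusted p under 0.05 in limma, where 518 of all 10405 tested genes were. By adjusted p, 38 of all tested genes were then called higher. Quantile normalization gave 2 called lower, Cfd and Cd59a. The remaining alternatives kept both counts within 1.5 times. Among the further complement genes 0 to 2 were called higher and 0 to 1 lower with 1 library left out, and 1 lower with robust empirical Bayes. Of 34 tested members, 19 kept direction and call status in all 11 alternatives. Among the called genes only Cfd did, and the rest of the 19 were never called. C6, C8b and C1ra lost the call in 4, 1 and 6 alternatives. With 1 library left out, log2 changes crossed 0 for genes near it, running from -0.14 to 0.077 for C4b, from -0.19 to 0.12 for Colec11, from -0.33 to 0.10 for Masp1, from -0.037 to 0.18 for Masp2, from -0.27 to 0.037 for C8g, from -0.0091 to 0.10 for Cpn1, from -0.045 to 0.27 for Cpn2, from -0.11 to 0.41 for Cd55, from -0.086 to 0.054 for Cr1l. Log2 ratio differences that crossed 0 ran from -0.040 to 0.11 for C1qa over C1qc, from -0.43 to 0.071 for Masp1 over Masp2, from -0.20 to 0.091 for Cpn1 over Cpn2, from -0.084 to 0.31 for C3 over Cfb. Quantile normalization turned C4b to 0.029 and Cr1l to 0.016. The cause was not tested. The median over the members ran from 0.16 to 0.23. No scaling moved the median of all genes by 0.1 or more on the log2 scale. No paired analysis was possible because the labels give no replicate numbers. C7, C3ar1 and C5ar1 lie too low for a test, and 3 libraries per group limit all precision.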
